A study of Mus musculus with 3 samples.

Results

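The 9 genes described here, Ring1, Rnf2, Bmi1, Pcgf2, Pcgf6, Cbx2, Cbx7, Cbx8 and Phc1, encode subunits of Polycomb repressive complex 1 (PRC1). They were chosen by name, as the listed PRC1 subunits among the 24421 genes counted. RNA-Seq was run on undifferentiated female mouse embryonic stem (ES) cells of the EL16.7 line, which has the F2 background 129S1/CastEiJx 129S1. There was 1 library for each of 3 conditions: control cells, labelled wild type, that carried a scramble shRNA, and NUP153 knockdown cells that carried NUP153 shRNA-1 (KD-1) or NUP153 shRNA-2 (KD-2). NUP153 is a protein of the nuclear pore basket. In all 3 conditions the shRNA was delivered by lentivirus, the cells were kept with LIF on γ-irradiated embryonic fibroblast feeders from Tg(DR4)1Jae/J mice, and infected cells were selected for 2 days with 2 μg/ml puromycin. The protocols describe no step that removes the feeders, so their RNA can be part of each library.

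PRC1 is a chromatin complex that keeps developmental genes silent. Its catalytic core is a pair of RING finger proteins, RING1 or RNF2 (also called RING1B) together with one PCGF protein, and this pair attaches ubiquitin to histone H2A. The PCGF protein sets which form of the complex is made. BMI1 and PCGF2 (also called MEL18) are found in canonical PRC1, where a CBX protein binds trimethylated lysine on histone H3 and a PHC protein lets complexes cluster, whereas PCGF6 builds a variant complex that is known in ES cells for keeping germline genes silent. In mouse ES cells CBX7 is known as the main canonical CBX protein, and CBX2 and CBX8 are known to take over as the cells differentiate.

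Levels were compared per length, as RPKM, in which the reads of a gene are divided by exon length and by library size after upper-quartile scaling. Per length, the 9 genes spanned a 123-fold range in control cells. Rnf2 was highest at 46.2 RPKM, and Pcgf6 followed at 44.4 RPKM, with counting intervals that overlapped. Phc1 stood at 25.7 RPKM and Bmi1 at 11.1 RPKM. Cbx7 (3.86 RPKM) and Cbx2 (3.83 RPKM) were not separable by read counting, and Ring1 lay below them at 3.01 RPKM. Pcgf2 had 1.23 RPKM, and Cbx8 was lowest at 0.376 RPKM. Thus in control cells Rnf2 stood far above its paralog Ring1, Bmi1 above Pcgf2, and Cbx7 above Cbx8. KD-1 had the same order of the 9 genes as control, whereas in KD-2 Ring1 (4.86 RPKM) stood above Cbx2 (3.62 RPKM) and Cbx7 (3.25 RPKM), and Cbx8 (0.887 RPKM) came up to Pcgf2 (0.937 RPKM) with overlapping intervals. These intervals are exact 95% Poisson intervals and cover counting error only.

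**Figure D1:**
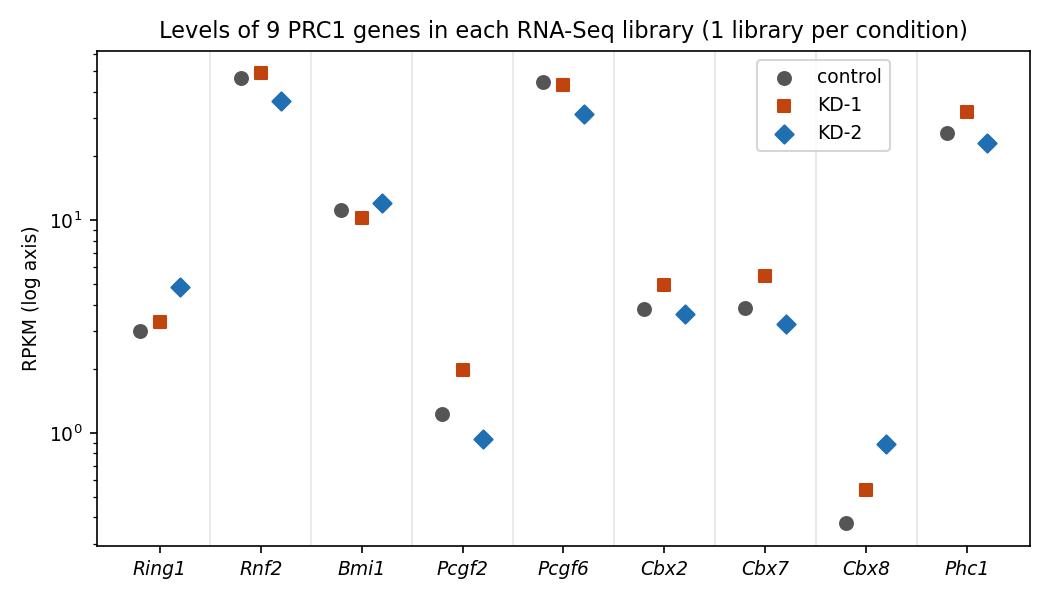
Level of each PRC1 gene in RPKM (vertical axis, log scale) in the control (grey circles), KD-1 (orange squares) and KD-2 (blue diamonds) library, with 1 library per condition and no error bars. Rnf2, Pcgf6 and Phc1 sat above 20 RPKM in all 3 libraries, and Cbx8 was lowest in each, from 0.376 RPKM in control to 0.887 RPKM in KD-2.

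The targeted gene was lower in both knockdown libraries: Nup153 had 65.3 RPKM in control, 32.9 RPKM in KD-1 (log2 fold change -0.99) and 24.2 RPKM in KD-2 (-1.43). The libraries had 72344726 (control), 85258834 (KD-1) and 69839336 (KD-2) reads on genes. The label of ES cells was checked on 8 markers, none of which was at 0, and their summed share of gene reads was 0.457%, 0.501% and 0.372% in control, KD-1 and KD-2. The libraries stood apart in feeder signal. All 10 fibroblast markers (Col1a1, Col3a1, Postn and others, none at 0) were lower in KD-1 than in control, with log2 fold changes from -2.01 to -0.08, and higher in KD-2, from 0.37 to 0.96. Their summed share was 0.25%, 0.172% and 0.464% of gene reads. Markers of primitive or visceral endoderm summed to 198, 280 and 262 reads over 8 genes. In such bulk libraries, fewer cells of a type and less RNA per cell cannot be told apart.

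The genes that stood past a 1.5-fold difference from control in any knockdown library were Pcgf2, Ring1 and Cbx8, and the sequences before their starts are shown with that of Bmi1, the paralog of Pcgf2, which was past it in neither. Sequences are from RefSeq (GRCm38.p6), with an entry for 8 of the 9 genes, all but Cbx2. They run 5′ to 3′ on the strand of the gene, up to 250 bases before the RefSeq start and without bases of annotated exons, and that of Pcgf2 lies inside the span of its annotated gene, between exons. Capitals mark the E-box CACGTG, which reads the same on both strands, and the GC box GGGCGG on either strand, where matches of the GC box in Bmi1 overlap each other and none overlaps an E-box.
Pcgf2, chr11:97699649-97699898, minus strand: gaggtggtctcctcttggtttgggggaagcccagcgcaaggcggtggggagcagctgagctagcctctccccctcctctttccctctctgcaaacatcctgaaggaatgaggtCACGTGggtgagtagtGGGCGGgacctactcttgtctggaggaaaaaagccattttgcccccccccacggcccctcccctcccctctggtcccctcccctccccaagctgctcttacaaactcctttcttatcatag
Bmi1, chr2:18676768-18677017, plus strand: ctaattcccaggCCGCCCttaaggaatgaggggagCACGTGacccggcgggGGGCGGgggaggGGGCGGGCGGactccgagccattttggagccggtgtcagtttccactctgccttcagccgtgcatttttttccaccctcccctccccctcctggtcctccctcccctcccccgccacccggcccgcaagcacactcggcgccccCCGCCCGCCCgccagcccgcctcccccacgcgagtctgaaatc
Cbx8, chr11:119040970-119041163, minus strand: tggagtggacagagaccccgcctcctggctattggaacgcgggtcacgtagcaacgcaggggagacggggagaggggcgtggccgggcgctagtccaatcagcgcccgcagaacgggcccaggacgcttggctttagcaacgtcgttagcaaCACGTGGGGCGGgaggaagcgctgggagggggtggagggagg
Ring1, chr17:34024681-34024930, minus strand: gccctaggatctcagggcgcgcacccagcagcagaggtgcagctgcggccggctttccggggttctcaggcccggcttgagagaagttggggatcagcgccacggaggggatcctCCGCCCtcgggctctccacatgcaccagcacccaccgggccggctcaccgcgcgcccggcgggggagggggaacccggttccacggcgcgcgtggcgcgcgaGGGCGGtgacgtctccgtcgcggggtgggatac
The E-box, a hexamer bound by MYC, MAX and related factors, was found in 3 of the 8 sequences, those of Pcgf2, Bmi1 and Cbx8, and in 6.02% of all 32851 RefSeq promoters of the same length. Its first base lay 137 bases before the start in Pcgf2, 215 in Bmi1 and 98 in Cbx8, where the GC box follows it directly. The GC box was found in 7 of the 8, all but Phc1, and in 32.7% of all promoters. Counted over 250 bases, CpG dinucleotides numbered 30 in Ring1, 22 in Cbx8 and 21 in Bmi1 but 5 in Pcgf2, against a median of 6 over all promoters. Since the Pcgf2 sequence lies inside its annotated gene, its count is not directly comparable to those of Ring1, Cbx8 and Bmi1. A match of these letters is a description only.

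The question of the design was how loss of NUP153 bears on gene expression, and each knockdown library was set against the control library. Differences are log2 fold changes of scaled reads, and the interval beside each covers counting error only, since 1 library per condition gives no spread between replicates and no test. In KD-1, 1 of 9 genes was past 1.5-fold, Pcgf2, which was higher. Of the 16670 genes whose mean reached 10 reads, 14.2% were past it, and 8.63% were so and higher. In KD-2 there were 2 of 9, Ring1 and Cbx8, both higher, where 27.3% of all genes were past it and 17.1% were so and higher. Both shares were near those of all genes. The median log2 fold change of the 9 genes was 0.33 in KD-1, where that of all genes was 0.02, and -0.16 in KD-2, where that of all genes was -0.02. Of the 9 genes, 7 were higher than control in KD-1 (53.1% of all genes) and 3 in KD-2 (48.3%). With scaling to the ES cell markers instead, a choice made after seeing the data, these counts were 5 (30.6% of all genes) and 6 (71.6%) and the medians of the 9 genes 0.15 and 0.14, and with library totals 4 were higher in KD-2 (59.9% of all genes). Both comparisons use the same control library.

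**Figure D2:**
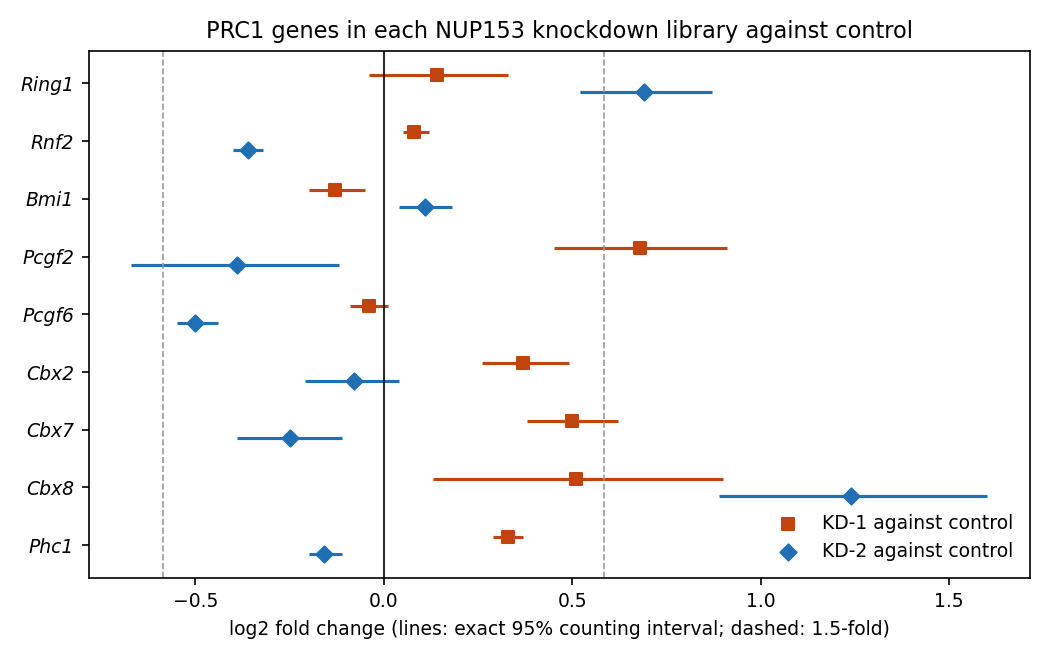
Log2 fold change of each PRC1 gene against control (horizontal axis) in KD-1 (orange squares) and KD-2 (blue diamonds), with lines for the exact 95% counting interval and dashed lines at 1.5-fold. Pcgf2 in KD-1 (0.68) and Ring1 (0.69) and Cbx8 (1.24) in KD-2 lie past the dashed line; scaling to the ES cell markers turns the sign of Ring1 and Rnf2 in KD-1 and of Cbx2, Cbx7 and Phc1 in KD-2, and scaling by library totals that of Cbx2 in KD-2.

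The catalytic subunits were led by Rnf2, whose protein is the main H2A ubiquitin ligase of ES cells. Rnf2 (chr1:151458004-151500955) had 10807 reads in control, 13400 with KD-1 and 9087 with KD-2. Its level was 46.2, 48.9 and 36.1 RPKM, nearly the same in control and KD-1 and lowest in KD-2. The log2 fold change of Rnf2 was 0.08 (0.05 to 0.12) in KD-1 and -0.36 (-0.40 to -0.32) in KD-2. With scaling to the ES cell markers it was -0.10 and -0.06.

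Its paralog Ring1 (chr17:34020792-34024680) encodes the other ligase, which can stand in for RNF2 in part. Ring1 had 428, 553 and 744 reads in control, KD-1 and KD-2, which is 3.01, 3.32 and 4.86 RPKM. KD-2 was highest, and control and KD-1 were close. The log2 fold change of Ring1 was 0.14 in KD-1, with a counting interval that held 0 (-0.04 to 0.33), and 0.69 (0.52 to 0.87) in KD-2, a 1.61-fold higher level. With scaling to the ES cell markers Ring1 was at -0.04 with KD-1 and 0.99 with KD-2. Within a library the share of one paralog among both does not depend on the scaling. Ring1 took 3.81% (3.46 to 4.18) of the reads on Ring1 and Rnf2 in control, 3.96% (3.65 to 4.30) in KD-1 and 7.57% (7.05 to 8.11) in KD-2. The KD-2 share lay outside the counting intervals of the other two, while Rnf2 still made up 92.4% of the reads there.

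Among the PCGF genes, Pcgf6 was the highest per length. Pcgf6 (chr19:47033617-47050906) had 6702, 7646 and 5116 reads, or 44.4, 43.2 and 31.5 RPKM in control, KD-1 and KD-2. Its log2 fold change was -0.04 (-0.09 to 0.01) in KD-1 and -0.50 (-0.55 to -0.44) in KD-2, so under upper-quartile scaling the interval held 0 in KD-1 and lay below it in KD-2. With DESeq2's size factors Pcgf6 was at -0.10 in KD-1, and with scaling to the ES cell markers at -0.22 with KD-1 and -0.20 with KD-2. Per length, Pcgf6 made up 64.3% of the 6 PCGF genes in control, 63.7% with KD-1 and 56.2% with KD-2.

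Bmi1 (chr2:18677018-18686629), first known as a partner of MYC in lymphoma and as a repressor of Cdkn2a, had 2872, 3079 and 3334 reads and 11.1, 10.2 and 12 RPKM in control, KD-1 and KD-2. The log2 fold change of Bmi1 was -0.13 (-0.20 to -0.05) in KD-1 and 0.11 (0.04 to 0.18) in KD-2, whereas with scaling to the ES cell markers it was -0.31 and 0.41. Of the 50-base stretches of Bmi1 transcripts, as long as the reads, 16.7% also occur in 2 other gene models, Gm5946 and AC114652.1, so its counts are uncertain to that extent, and for each of the other 8 genes this share was 2.59% or less. Its share of the 6 PCGF genes per length was 16.1%, 15% and 21.4%.

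Pcgf2 (chr11:97688823-97700497) differed in opposite directions in the knockdown libraries. It had 244 reads in control, 457 with KD-1 and 200 with KD-2, or 1.23, 1.97 and 0.937 RPKM. KD-1 stood well above the other two. The log2 fold change of Pcgf2 was 0.68 (0.45 to 0.91) in KD-1, 1.6-fold, and -0.39 (-0.67 to -0.12) in KD-2. With scaling to the ES cell markers these were 0.50, under 1.5-fold, and -0.09. Pcgf2 took 7.83% (6.91 to 8.83) of the reads on Pcgf2 and Bmi1 in control, 12.9% (11.8 to 14.1) in KD-1 and 5.66% (4.92 to 6.47) in KD-2, and these 3 intervals did not overlap. Bmi1 remained the larger of the pair in every library.

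**Figure D3:**
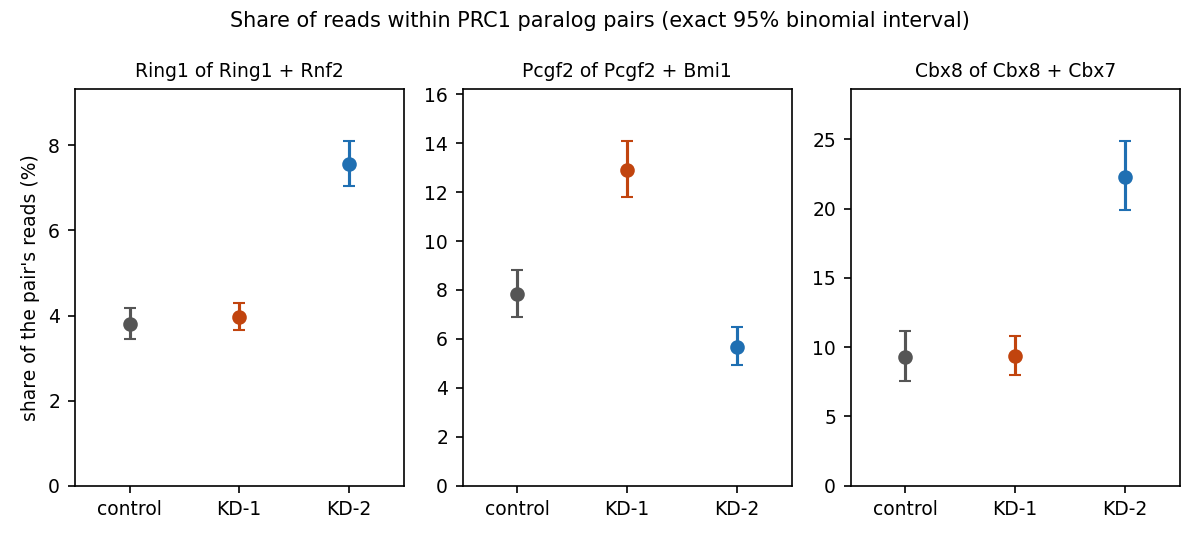
Share of reads (vertical axes, percent, from 0) taken by Ring1 of Ring1 and Rnf2, by Pcgf2 of Pcgf2 and Bmi1, and by Cbx8 of Cbx8 and Cbx7 in the control (grey), KD-1 (orange) and KD-2 (blue) library, with exact 95% binomial intervals of the read counts. The shares of Ring1 and Cbx8 stood out in KD-2 (7.57% and 22.3%), and that of Pcgf2 was highest in KD-1 (12.9%) and lowest in KD-2 (5.66%).

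The CBX genes split in KD-2. Cbx7 (chr15:79915807-79971119) had 919, 1522 and 832 reads, or 3.86, 5.46 and 3.25 RPKM, in control, KD-1 and KD-2, and KD-1 was the highest. Its log2 fold change was 0.50 (0.38 to 0.62) in KD-1 and -0.25 (-0.39 to -0.11) in KD-2, the latter turning to 0.05 with scaling to the ES cell markers. Cbx2 (chr11:119022962-119031270), whose protein compacts chromatin, was also highest in KD-1. It had 1018, 1542 and 1036 reads, or 3.83, 4.95 and 3.62 RPKM. The log2 fold change of Cbx2 was 0.37 (0.26 to 0.49) with KD-1 and -0.08 with KD-2, where the interval held 0 (-0.21 to 0.04) and where library totals gave 0.08 and scaling to the ES cell markers 0.22.

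Cbx8 (chr11:119036305-119040969) was the PRC1 gene farthest from its control level. It had 94 reads in control, 157 with KD-1 and 239 with KD-2, or 0.376, 0.536 and 0.887 RPKM, so control was lowest and KD-2 highest. Its log2 fold change was 0.51 (0.13 to 0.90) in KD-1 and 1.24 (0.89 to 1.60) in KD-2, 2.35-fold. It was positive under every scaling tried, from 0.33 to 0.52 in KD-1 and from 1.24 to 1.54 in KD-2. With scaling to the ES cell markers the KD-1 interval held 0 (-0.04 to 0.72). Cbx8 took 9.28% (7.56 to 11.2) of the reads on Cbx8 and Cbx7 in control, 9.35% (8.00 to 10.8) in KD-1 and 22.3% (19.9 to 24.9) in KD-2, so the KD-1 share did not differ from control beyond counting error and the KD-2 share did. Cbx2, also on chr11, had a KD-1 value inside the counting interval of Cbx8 and a KD-2 value outside it. Cbx6, another canonical CBX gene, had 1838, 1909 and 2710 reads in control, KD-1 and KD-2 and log2 fold changes of -0.17 and 0.45.

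The genes whose pair of fold changes was most like that of Cbx8, among 7881 genes whose mean reached 1000 reads, were Hmox1 (0.50 with KD-1 and 1.16 with KD-2 on the log2 scale), Pgls (0.42 and 1.24) and Rassf1 (0.72 and 1.19). Likeness was the distance to Cbx8 in the plane of both fold changes. All 3 lay inside both counting intervals of Cbx8, so their order is not resolved, nor are they told apart from other genes inside these intervals, and likeness rests on 3 libraries only.

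Phc1 (chr6:122317731-122340561), whose protein carries the SAM domain through which complexes join, was the main PHC gene. It had 7734, 11407 and 7465 reads and 25.7, 32.3 and 23 RPKM in control, KD-1 and KD-2. KD-1 was highest, and control and KD-2 were close. The log2 fold change of Phc1 was 0.33 (0.29 to 0.37) in KD-1 and -0.16 (-0.20 to -0.11) in KD-2, the latter -0.00 with library totals and 0.14 with scaling to the ES cell markers. Phc2 had 1582, 1792 and 2687 reads and log2 fold changes of -0.05 and 0.66, and Phc3 1543, 1694 and 1863 reads with -0.09 and 0.16. Phc1 took 71.2% (70.4 to 72.1) of the reads on the 3 PHC genes in control, 76.6% (75.9 to 77.3) in KD-1 and 62.1% (61.3 to 63.0) in KD-2, while Phc2 took 14.6%, 12% and 22.4%. Hence Ring1 beside Rnf2, Cbx8 beside Cbx7 and Phc2 among the PHC genes took a larger share of reads in KD-2 than in control, and Pcgf2 beside Bmi1 did so in KD-1. In KD-2 the feeder markers were higher (median log2 fold change 0.80) and the ES cell markers lower (-0.30), and in KD-1 the feeder markers were lower (-0.98) and the ES cell markers at 0.18. Their part in these shares and fold changes was not tested.

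**Figure D4:**
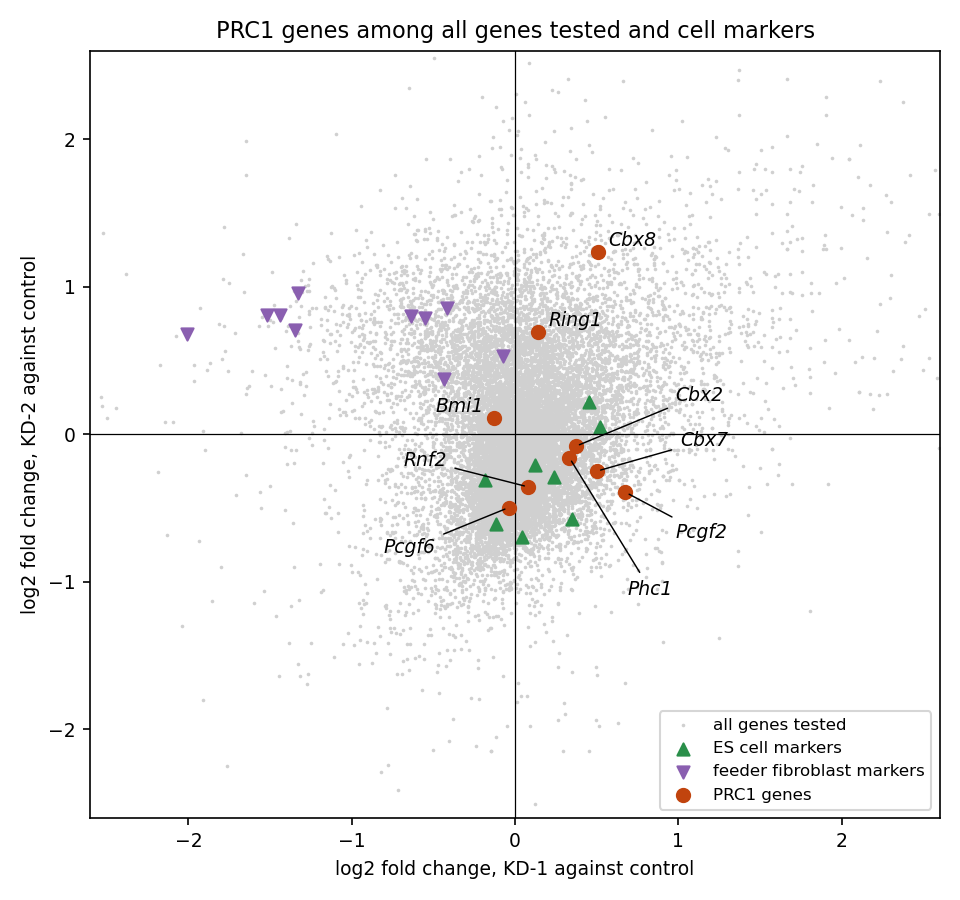
Log2 fold change against control in KD-1 (horizontal axis) and KD-2 (vertical axis) for the 9 PRC1 genes (orange circles), 8 ES cell markers (green triangles), 10 feeder fibroblast markers (purple triangles) and the 16670 genes tested (grey), of which 44 lie outside the plotted range of 2.6. Feeder markers lie left of 0 and above it, Cbx8 and Ring1 lie at the upper right, and Pcgf2, Cbx7, Cbx2 and Phc1 lie at the lower right under upper-quartile scaling; with scaling to the ES cell markers Cbx7, Cbx2 and Phc1 lie above 0 in KD-2.

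KD-1 and KD-2 were also set against each other. Here 3 of 9 genes were past 1.5-fold, and 30.1% of all genes tested were. Pcgf2 was higher in KD-1 (log2 fold change 1.07, 0.83 to 1.32), as was Cbx7 (0.75, 0.63 to 0.87), and Cbx8 was lower (-0.73, -1.03 to -0.43). Ring1, at -0.55 (-0.71 to -0.39), stayed just under the threshold and passed it under each other scaling, from -0.60 to -1.03, whereas Cbx7 fell just short of it with library totals (0.58) and clearly so with scaling to the ES cell markers (0.27). Rnf2 (0.44), Pcgf6 (0.46), Cbx2 (0.45) and Phc1 (0.49) had much the same difference. The ES cell markers ranged from 0.12 to 0.92, with a median of 0.48. Scaling to these markers moves every value of this comparison by -0.48, so all 4 genes then lay between -0.04 and 0.01 by that shift alone. Bmi1 was at -0.24, and at -0.72, past 1.5-fold, with the ES cell markers. The median of the 9 genes was 0.45, and that of all genes 0.12. In Nup153 itself the difference was 0.44, and with scaling to the ES cell markers it was -0.04.

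Both knockdown libraries were then treated as a group of 2 and compared to control, which is the one comparison with a spread between libraries. By edgeR's quasi-likelihood test with Benjamini-Hochberg adjustment, 0 of 9 genes were called at an adjusted p under 0.05, all 9 had an adjusted p of 1, and 0 had an unadjusted p under 0.05. The targeted gene Nup153 was not called either (log2 fold change -1.19, unadjusted p 0.00881, adjusted p 1), although it was lower in 2 of 2 knockdown libraries. Over all genes 1 of 16670 was called (0.006%), and 211 had an unadjusted p under 0.05. DESeq2's Wald test also called 0 of 9. Cbx8 had the largest log2 fold change, 0.92, and the lowest unadjusted p, 0.147, and it was higher than control in 2 of 2 knockdown libraries. Ring1 followed with 0.44, and the other 7 lay between -0.25 for Pcgf6 and 0.24 for Pcgf2. The spread in this test also holds the difference between the shRNAs, and the test has 1 residual degree of freedom.

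The other subunits of PRC1 complexes were taken from a list of 30 genes, each of which had a mean over 10 reads. In KD-1, 2 of 30 were past 1.5-fold, both higher: Bcorl1 (193, 453 and 250 reads, log2 fold change 1.00), a corepressor of the complex built on PCGF1, and Fbrs (146, 258 and 142 reads, 0.59). That is 6.67% of the list, and Fbrs was under the threshold with TMM, DESeq2's size factors, library totals and the ES cell markers. The median was 0.08, and it turned to -0.10 with the ES cell markers. In KD-2, 5 of 30 (16.7%) were past it. Phc2 (0.66) and Yaf2 (0.71), which encodes a partner of the RING proteins in variant complexes, were higher. Scml2 (2696, 2781 and 1471 reads, -0.98), Skp1a (-0.63) and Cbx3 (-0.65), which encodes a heterochromatin protein found in the PCGF6 complex, were lower. This split of 2 higher and 3 lower was 4 and 1 with library totals and 5 and 1 with the ES cell markers. Skp1a and Cbx3 were under the threshold with both, while Cbx6 and Scmh1 passed it with both and Fbrsl1 with the ES cell markers. The median of the list in KD-2 was -0.25, and it turned to 0.05 with the ES cell markers. Both shares were below those of all genes.

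The subunits of the PCGF6 complex beside PCGF6 itself, among them L3mbtl2, Mga, Max and E2f6, were lower than control in KD-2 in 9 of 9 cases, or in 7 of 9 with library totals or with scaling to the ES cell markers. Of all genes tested, 51.7% were lower there under upper-quartile scaling, 40.1% with library totals and 28.4% with the ES cell markers. Only 1 of the 9 (11.1%), Cbx3, was past 1.5-fold, where 27.3% of all genes were. With library totals or the ES cell markers 0 of 9 were, where 28.6% and 33.4% of all genes were. The counting intervals of Max (-0.19 to 0.01) and E2f6 (-0.17 to 0.03) held 0. The median was -0.42, with a range from -0.65 to -0.07. In KD-1, 4 of the 9 were higher and the median was -0.01. Pcgf6, at -0.50 in KD-2, lay among them. The median of the 9 in KD-2 lay near that of the ES cell markers (-0.30), whose scaling moves every KD-2 value up by 0.30. For the PCGF1 complex the medians of 5 further subunits were 0.29 with KD-1 and 0.03 with KD-2, and for the complexes of PCGF3 and PCGF5 those of 6 were 0.27 and -0.27, the latter 0.04 with the ES cell markers. Pcgf1 itself had log2 fold changes of 0.08 and -0.27, Pcgf3 of -0.02 and 0.02, and Pcgf5 of 0.08 and -0.14. The enzymes that take ubiquitin off H2A were represented by 5 genes, Bap1, Asxl1, Asxl2, Asxl3 and Usp16, of which 0 were past 1.5-fold in either knockdown library (14.2% of all genes in KD-1, 27.3% in the other), with medians of 0.03 with KD-1 and -0.16 with KD-2, which turned to -0.15 and 0.14 with the ES cell markers.

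Genes known as Polycomb targets in ES cells were followed with a list of 30, of which 21 reached a mean of 10 reads over the 3 libraries. The other 9 had between 0 and 11 reads in each library. Not all listed genes were silent in control, where Cdkn2a stood at 20.1 RPKM and Tbx3 at 11.8 RPKM. Of the 21, Msx1, Cdx2 and Sox1 were under 10 reads in control and reached the mean through a knockdown library, so the counts and medians of this list are given as a description and nothing is read from them. In KD-1, 5 of 21 (23.8%) were past 1.5-fold, where 14.2% of all genes were, and all 5 were higher, where 8.63% of all genes were past it and higher: Cdx2 (6 reads in control, 25 with KD-1 and 24 with KD-2, log2 fold change 1.75 in KD-1), Sox1 (8, 24 and 16 reads, 1.31), Sox17 (15, 31 and 20 reads, 0.80), Eomes (249, 463 and 406 reads, 0.67) and Nkx2-9 (31, 56 and 72 reads, 0.62). The counting intervals of Sox17 (-0.11 to 1.81) and Nkx2-9 (-0.03 to 1.31) held 0. The median was 0.10, and it was -0.07 with scaling to the ES cell markers, under which 3 of 21 were past the threshold and 14.9% of all genes were.

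In KD-2, 13 of 21 (61.9%) were past 1.5-fold, 12 of them higher, where 27.3% of all genes were past it and 17.1% were so and higher, and the median was 0.62. Under the other scalings 12 or 13 of 21 were past it, and between 26.9% and 33.4% of all genes. The gene with the most reads among them was Cdkn2a, the cell cycle inhibitor locus that BMI1 is known to repress. It was already expressed in control (20.1 RPKM), with 1650 reads there, 1717 with KD-1 and 3768 with KD-2. Its log2 fold changes were -0.17 and 1.08. Bmi1 had a log2 fold change of 0.11 in the same library. The others that were higher were Msx1 (4, 5 and 27 reads, 2.52), Cdx2 (1.82), Lhx5 (1.36), Nkx2-9 (1.10), Gata6 (1.08), Sox1 (0.86), Lhx2 (0.85), Gsc (0.85), Tbx5 (0.77), T (0.62) and Eomes (0.60), of which Sox1 (-0.42 to 2.33) and T (-0.02 to 1.30) had counting intervals that held 0. Only Wt1 was past the threshold and lower (22, 28 and 15 reads, -0.64, with an interval from -1.71 to 0.35). Beside these values, all 10 feeder markers were higher in KD-2, with scaled reads that summed to 325799 there, 135764 in KD-1 and 196034 in control, and their part in the result was not tested.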

How the data were processed

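RNA-Seq was analysed in 3 mouse ES cell libraries (ribosomal RNA depleted, 50 bp reads). Reads were trimmed with Trim Galore 0.4.1 and mapped with TopHat2 2.1.1 to GRCm38 (mm10), and the counts of reads per gene that the authors deposited are raw. The submitters' processing notes name HTSeq and the study's methods name featureCounts. The strand setting is not given in the sources used here. The 5 summary lines of each file, equal to 23 to 25.6% of the reads on genes plus these lines, were left out of library sizes. Libraries were scaled by the upper quartile (edgeR 4.0.16, R 4.3.3). Log2 fold changes used a pseudocount of 0.5 scaled reads for the 16670 genes whose mean reached 10 reads, and "past" means a fold change above 1.5 (0.58 on the log2 scale). Intervals are exact binomial or Poisson 95% intervals and cover counting error only, since PCR reads are not independent molecules. The study's test with a dispersion fixed from spike-ins was not run, since spike-in counts were not used here. Both knockdown libraries as a group were set against control by the quasi-likelihood test of edgeR, with Benjamini-Hochberg adjustment, or alternatively by DESeq2 1.42.0 (Wald test). Nothing says that the libraries came from more than 1 culture each. The spread in this test is that between KD-1 and KD-2, which carry different shRNAs, so it is not a spread between replicates of 1 condition. Exon lengths and coordinates are from GENCODE M21 (23376 of 24421 genes matched), 1-based, on GRCm38. Reads of near-identical stretches were sought as shared 50-base words, and no exon of the 9 genes overlaps another counted gene. The scripts were tested on simulated data.

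The genes and lists were chosen with earlier results of these data known. Named were the 9 genes, Nup153, genes past 1.5-fold in KD-1 or KD-2 from the lists of other PRC1 subunits, H2A deubiquitination and Polycomb targets, the PCGF, CBX and PHC paralogs, and the 3 genes nearest to the PRC1 gene farthest from 0. Other genes were named as examples of a list, and 1 gene that this rule covers is not reported here. Alternatives were TMM, DESeq2's size factors, library totals, the upper quartile of filtered genes, a fold change above 2, a pseudocount of 5, no filter or a minimum mean of 100, and, added after seeing the data, scaling by the geometric mean of the 8 ES cell markers. Python 3.11.15, scipy 1.17.1 and pandas 2.3.3 were used.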

Additional observations from a re-analysis of the deposited data

Results flagged for a closer look

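Among the 9 PRC1 genes, 5 lay on opposite sides of control in KD-1 and KD-2, with counting intervals that left out 0 under upper-quartile scaling and with the same signs under upper-quartile, TMM, DESeq2 and library total scaling. The difference was not tested, since each shRNA has 1 library, and both comparisons share the control library. The share of all genes that lay on opposite sides in this way was not counted, so 5 of 9 is not shown to be particular to PRC1. All 10 feeder markers had opposite signs as well, from -2.01 to -0.08 with KD-1 and from 0.37 to 0.96 with KD-2. Pcgf2 was at 0.68 with KD-1 and -0.39 with KD-2, and Cbx7 at 0.50 and -0.25. Rnf2 was at 0.08 with KD-1 and -0.36 with KD-2. Phc1 was at 0.33 and -0.16, the latter -0.00 with library totals. Bmi1 went the other way, at -0.13 and 0.11. With libraries scaled to the ES cell markers Cbx7 (0.32 and 0.05), Phc1 (0.15 and 0.14) and Rnf2 (-0.10 and -0.06) no longer lay on opposite sides of control, whereas Pcgf2 (0.50 and -0.09) and Bmi1 (-0.31 and 0.41) did, but the KD-2 interval of Pcgf2 then held 0 (-0.37 to 0.18). With library totals the KD-2 intervals of Pcgf2, Cbx7 and Phc1 held 0, and with DESeq2's size factors the KD-1 interval of Rnf2 did.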

How the results depend on the processing

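The count of PRC1 genes past 1.5-fold was 1 with KD-1 and 2 with KD-2 under all scalings planned, a pseudocount of 5 and the other filters on low counts. Over these settings the share of all genes went from 8.07% to 25% in KD-1 and from 22.4% to 35.3% in KD-2. With a fold change above 2 it was 0 in KD-1 (4.62% of all genes), 1 in KD-2 (7.27%) and 1 in KD-1 against KD-2 (11%), and with scaling to the ES cell markers it was 0 in KD-1 (14.9%). At 1.5-fold, KD-1 against KD-2 gave 3 or 4, where between 26% and 38.2% of all genes were past it. For both knockdown libraries against control, no setting called any of the 9 genes, and the lowest unadjusted p, that of Cbx8, ranged from 0.117 to 0.161. Over all genes this test called 1, and between 0 and 4 in the alternatives. Bmi1, at -0.01 there, turned to 0.01 with TMM, 0.08 with library totals and 0.03 with the upper quartile of filtered genes. Without KD-1 or without KD-2 the value is the fold change of the other library, with no residual degree of freedom and no test. Library totals moved the median of all genes by 0.16 in KD-2 and -0.17 in KD-1 against KD-2, and the ES cell markers moved it by -0.18 in KD-1, 0.30 in KD-2 and -0.48. Among all genes past 1.5-fold in KD-2, 62.6% were higher, but 82.8% with library totals and 91.7% with the ES cell markers. For KD-1 against KD-2 it was 46.3%, but 32.9% with DESeq2's size factors, 25.8% with library totals and 7.1% with the ES cell markers. In KD-1 it was 60.5%, but 35.6% with the ES cell markers. No paired analysis was possible because each condition has 1 library. Cbx8 rests on 94 reads in control, which limits its precision.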
